A study of Macaca mulatta with 30 samples.

Results

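The submandibular gland and the pancreas of the rhesus macaque (Macaca mulatta) were compared within animals. The 12 libraries described are those whose labels give the submandibular gland (6) or the pancreas (6), out of 30 libraries in the series, 1 per tissue from each of 6 animals. The other 18 libraries come from the parotid gland, the sublingual gland and the liver. No treatment, strain or genotype is stated. Females were animals 1 to 4, males animals 5 and 6. Every submandibular piece came from the left gland, and all tissue was flash frozen. Ages are not given in the sources used here. RNA was taken from 3 sections of 30 µm per tissue, so each library describes a small piece of an organ.

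Both organs are exocrine glands. Their acinar cells fill granules with protein and release it into ducts on a nervous or hormonal signal, and duct cells then change the salt and bicarbonate of the fluid. The submandibular gland delivers mucins, cystatins, proline-rich proteins and antimicrobial proteins into saliva. The pancreas delivers proteases, lipases and amylase into the duodenum, and its islets release insulin, glucagon and somatostatin into the blood. The series was designed around amylase, the starch-digesting enzyme that salivary glands and pancreas can both secrete.

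Expression is given in TPM, the abundance of a gene's transcripts corrected for their length and expressed as a share of a total that is the same in every library. Levels of different genes can therefore be compared, and more of a very abundant transcript means a smaller share for all others. Differences are those of log2(TPM + 1), submandibular gland minus pancreas within animals, tested with limma on 13550 genes that reached 1 TPM in 6 or more of the 30 libraries. A gene was called at an adjusted p below 0.05. Because the libraries come from whole tissue, fewer cells of a type and less RNA per cell cannot be told apart in any result here.

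Both libraries of animal 4 stood apart from those of the other 5 animals and went against their tissue labels. The median of 6 salivary marker genes (SMR3B, BPIFA2, CST3, MUC7, PIP and ZG16B) was 538 TPM in its submandibular library and 23396 to 36956 TPM in the remaining 5. For 6 pancreas markers (PRSS1, CPA1, PNLIP, CELA3B, CTRC and INS) the median was 399.9 TPM in its pancreas library and 24099 to 35606 TPM elsewhere. The median of 15 adipocyte genes was 660 TPM in the first of these libraries and 512 TPM in the second, against at most 6.72 TPM in the other submandibular and 53.9 TPM in the other pancreas libraries. Mitochondrially encoded genes took 9.58% and 14.1% of the 2 libraries, against 2.95 to 4.97% and 3.47 to 8.70% in the others. Differences below include this pair unless stated, and the TPM values of the other 5 animals and the list counts without it stand beside them. Of 122 named genes tested, 0 lost their call without it and 15 gained one.

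A few genes, some secreted-protein genes and some known only by LOC identifiers, made up most of the TPM in 5 submandibular libraries. In the 5 animals other than animal 4 the 10 most abundant genes took 73.5 to 78.9% of all TPM in the submandibular gland and 37.1 to 49.6% in the pancreas. Only 8477 to 9817 genes reached 1 TPM in those submandibular libraries, against 10081 to 12732 in the pancreas libraries, with no overlap. The 35 salivary secreted-protein genes on the list used here held 30.9 to 50.9% of a submandibular library, and 5 further genes known only by LOC identifiers held 25.3 to 48.0%. Genes for pancreatic proteases, lipases and granule proteins held 26.9 to 53.5% of a pancreas library and 0.145 to 0.289% of a submandibular library. In animal 4 the salivary list held 1.09% of the submandibular library and the pancreatic lists 0.576% of the pancreas library.

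**Figure D1:**
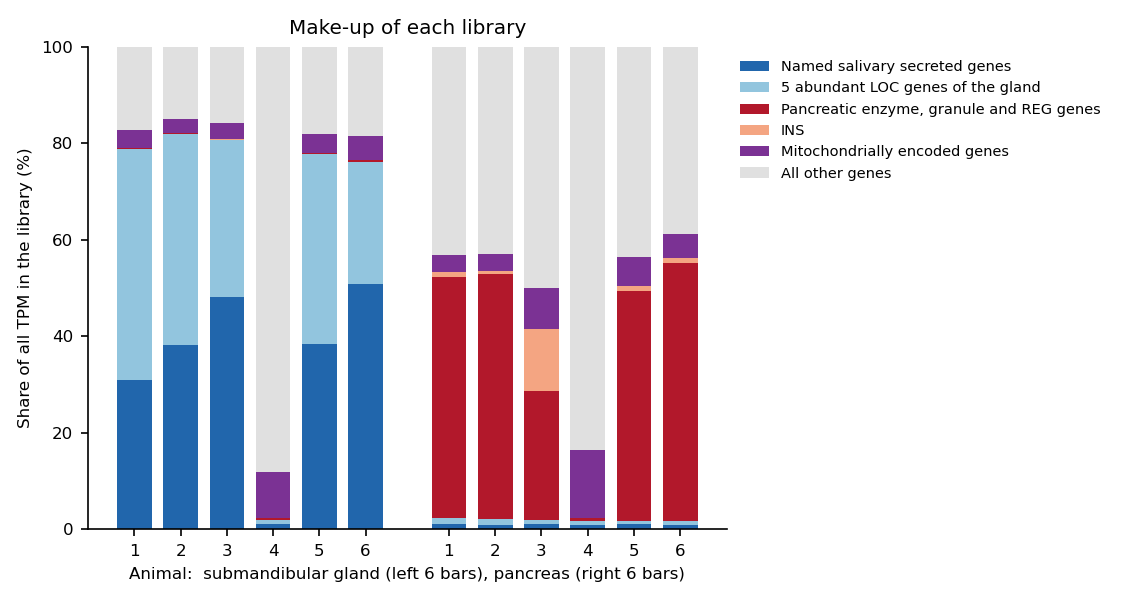
Stacked bars give the percent of all TPM in each of the 6 submandibular (left) and 6 pancreas libraries (right), by animal, that came from groups of genes. In 5 animals the salivary list and 5 LOC genes fill most of each submandibular bar and the pancreatic lists 26.9 to 53.5% of each pancreas bar, while both bars of animal 4 hold little of either.

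Of the 13550 genes tested, 1316 differed between submandibular gland and pancreas (9.71%). 305 were higher in the submandibular gland (2.25%) and 1011 were lower (7.46%), and the median difference over all genes was -0.33. Scaling each library by a trimmed-mean factor, which limits the weight of very abundant genes, moved that median to 0.01 and gave 1118 higher (8.25%) and 1060 lower genes (7.82%), or 16.1% in all, so the balance of directions depends on the scaling. The 305 higher genes were all called higher with trimmed-mean scaling, without the animal 4 pair, and with both changes, a setting that called 22.7% of all genes. Of the 1011 lower genes, 811 were called lower with trimmed-mean scaling and 1010 without the animal 4 pair. No gene was called in opposite directions by the 2 scalings. Without the animal 4 pair 3982 genes were called (29.4%), 507 higher (3.74%) and 3475 lower (25.6%). Leaving out all libraries of 1 animal gave 794, 731, 623, 3946 and 744 genes for animals 1 to 5 and 1066 for animal 6. In the 5 animals other than animal 4 the TPM values of the tissues did not overlap in 4787 of the tested genes (35.3%). Of these, 539 were higher in submandibular gland (3.98%) and 4248 lower (31.4%).

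Salivary secreted-protein genes were mostly higher in the submandibular gland. Of the 35 list members in the table, 32 passed the filter on low values, 19 were called higher and 1, SLPI, was called lower. Their median difference was 2.48, beside -0.33 for all genes. MUC5B, BPIFA1 and AMTN were below the filter, at no more than 0.262 TPM in any of the 12 libraries. With trimmed-mean scaling 22 members were higher and 0 lower, and without the animal 4 pair 21 and 2. Over all genes 2.25% were called higher and 7.46% lower, 8.25% and 7.82% with trimmed-mean scaling, and 3.74% and 25.6% without that pair.

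The most abundant of them was SMR3B, which encodes a small proline-rich protein of saliva. It stood at 103269, 137035, 152354, 914, 119614 and 141448 TPM in animals 1 to 6 in the submandibular gland. In the pancreas the same animals had 3371, 2502, 3109, 1417, 1333 and 2106 TPM in animals 1 to 6. Apart from animal 4, every submandibular value lay more than an order of magnitude above every pancreas value. The difference was 4.71 (SE 0.75, adjusted p = 7.71e-05), higher in 5 of 6 animals.

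BPIFA2, a lipid-binding protein secreted into saliva, stood at 83114 to 138344 TPM (median 113856) in the other 5 submandibular libraries and at 406 TPM in animal 4. Its pancreas values ran from 786 to 1701 TPM, and the difference was 5.12 (SE 0.79, adjusted p = 4.83e-05). The related BPIFA4 reached 1042 to 2362 TPM (median 1704) in 5 animals, 2.34 TPM in animal 4 and at most 24.8 TPM in pancreas, a difference of 4.96 (SE 0.93, adjusted p = 0.000548). BPIFB2 was also higher, by 3.39 (SE 0.72, adjusted p = 0.00219). Another family member, BPIFB1, had 174 TPM on average in the 5 submandibular libraries and 75.1 TPM in the 5 pancreas libraries, and its adjusted p of 0.145 passed only with trimmed-mean scaling (0.049) or without the animal 4 pair (0.0472).

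Cystatins, inhibitors of cysteine proteases, were among the steepest differences. CST2 held 27453 to 112245 TPM (median 83757) in the submandibular gland of 5 animals, 70.8 TPM in that of animal 4 and 338 to 853 TPM in the pancreas. CST5 held 7689.6 to 13563 TPM (median 10046), 68.7 TPM and 83.6 to 189 TPM in the same order. In both genes the animal 4 pair was the only one with the lower value in the submandibular gland. CST2 differed by 5.36 (SE 1.03, adjusted p = 0.000715) and CST5 by 5.01 (SE 0.67, adjusted p = 7.3e-06). Without the animal 4 pair these became 6.88 (SE 0.58) and 6.17 (SE 0.22).

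CST3, the widely expressed cystatin C, behaved differently in animal 4. Its submandibular values were 4075, 6437, 7393, 7803, 5987 and 5468 TPM in animals 1 to 6, so animal 4 had the highest of all. Its pancreas values were 195, 199.9, 525, 3320.0, 270.0 and 176 TPM in animals 1 to 6, with animal 4 again the highest. It was higher in the submandibular gland in 6 of 6 animals, by 3.97 (SE 0.50, adjusted p = 2.71e-06), the largest rise among genes with a symbol, the same direction in every animal and a mean of 100 TPM or more in the tissue where they were higher.

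Further salivary proteins followed the pattern of SMR3B. PIP, a secreted glycoprotein of saliva and tears, had 30517 to 48261 TPM (median 35584) in 5 submandibular libraries, 219 TPM in animal 4 and 461 to 869 TPM in pancreas. CA6, the secreted carbonic anhydrase of saliva, had 9370.4 to 15661 TPM (median 11783), 148 TPM and 185 to 568 TPM. ZG16B, a lectin-like secreted protein, had 11208 to 42560.2 TPM (median 20304), 669.5 TPM and 264 to 2666 TPM. MUC7, the small salivary mucin, had 2047 to 6045 TPM (median 2485), 112 TPM and 38.7 to 299 TPM. The differences were 4.64 (SE 0.89, adjusted p = 0.000695) for PIP, 4.31 for CA6, 3.75 for ZG16B and 4.33 for MUC7, all past the threshold and each higher in 5 of 6 animals. Proline-rich PRR27 (4.68) and PRR4 (3.80) and lactoperoxidase, LPO (3.50), were lower in abundance, at 240.4, 65.6 and 122 TPM on average in the 5 submandibular libraries.

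Several members were higher in the submandibular gland of all 6 animals. The lysosomal nuclease gene DNASE2B stood at 92.1 to 151 TPM (median 113) in 5 submandibular libraries, at 9.45 TPM in animal 4 and at 1.67 to 7.60 TPM in pancreas, a difference of 3.95 (SE 0.69, adjusted p = 0.000255). SMR3A, next of kin to SMR3B, had 91 to 418 TPM (median 169.9), 33.2 TPM and 0.994 to 44.5 TPM, a difference of 3.57 (SE 0.79, adjusted p = 0.00301). Its values in the 2 tissues overlapped only through the submandibular library of animal 4.

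Some genes of saliva were not higher. KLK1, tissue kallikrein, stood at 1359 ± 808 TPM in submandibular gland and 1537 ± 783 TPM in pancreas (mean ± SD, n = 6 each), a difference of -0.24 (SE 0.76, adjusted p = 0.873) that did not pass and turned to 0.32 with trimmed-mean scaling. The values of the 5 animals overlapped, at 986 to 2192 TPM and 1363 to 2239 TPM. SLPI, a secreted inhibitor of leukocyte proteases, was lower in the submandibular gland in 6 of 6 animals (-1.62, adjusted p = 0.00825), but not with trimmed-mean scaling (-1.07, adjusted p = 0.16). TCN1, a carrier of vitamin B12, differed by -1.97 with an adjusted p of 0.15, and its pancreas values spread from 1.40 to 128 TPM.

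Of the 10 most abundant submandibular genes, 5 carry only LOC identifiers, and the tables used here give them no names. They were picked for their abundance after their values were seen. LOC114670789 was the most abundant gene of the gland, at 265700.0, 179540.0, 124029, 2719.8, 166790.0 and 153676 TPM in animals 1 to 6, against 2312 to 6159 TPM in pancreas. LOC722360 had 68425 to 173096 TPM (median 79295) in 5 submandibular libraries and 1665 TPM in animal 4. Their differences were 4.52 (SE 0.61, adjusted p = 8.85e-06) and 4.41 (SE 0.56, adjusted p = 4.02e-06). LOC703642 stood at 12375 to 28020.2 TPM (median 22916) in 5 submandibular libraries and at 7.97 TPM in animal 4, below all 6 pancreas values (79.3 to 229 TPM). Without the animal 4 pair it had the largest rise of the comparison among genes of at least 100 TPM with the same direction in every animal (6.98, SE 0.43), against 5.20 (SE 1.09, adjusted p = 0.00175) with it.

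LOC107000764 divided the animals. Its submandibular values were 2975, 107229, 98392, 1363, 107157 and 2115 TPM in animals 1 to 6. Animals 2, 3 and 5 thus stood near the level of SMR3B, and animals 1 and 6 near the pancreas range of 733 to 1866 TPM. The difference was 3.37 (SE 0.93, adjusted p = 0.0187). LOC695018, the last of the 5, had 8016 to 25478 TPM (median 13318) in 5 animals and 1385 TPM in animal 4, and differed by 2.92 (SE 0.42, adjusted p = 2.34e-05).

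**Figure D2:**
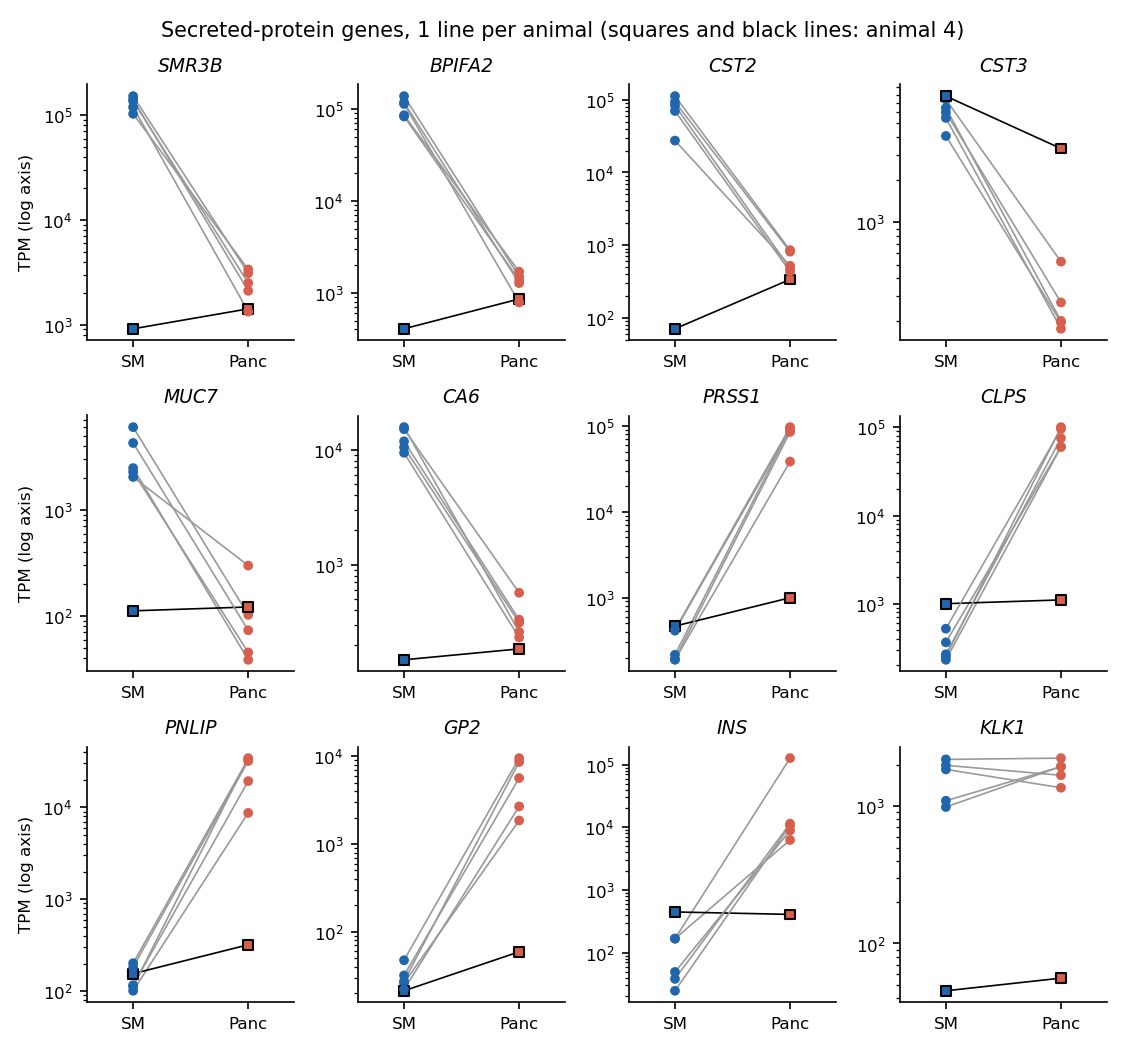
TPM on a log axis for secreted-protein genes of the gland and of the pancreas, with 1 line joining the submandibular and pancreas values of each animal and squares with black lines for animal 4. The lines of 5 animals fall steeply from gland to pancreas for salivary genes such as SMR3B and rise for pancreatic genes such as PRSS1, while the lines of animal 4 are nearly flat for most genes.

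Every digestive enzyme on the protease and lipase lists was lower in the submandibular gland. All 10 pancreatic proteases and all 5 lipases and their helpers were called, with medians of -6.36 and -6.48, and 9 of the 10 tested granule, REG and SPINK genes, with a median of -6.17. The counts were the same with trimmed-mean scaling and without the animal 4 pair. Of all genes, 7.46% were lower, 7.82% with that scaling and 25.6% without that pair. 2 further genes of the granule list, REG3G and REG4, were not tested, with REG3G listed at 0 in all 12 libraries.

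PRSS1, encoding cationic trypsinogen, the precursor of trypsin, showed the largest fall among genes with a symbol that were lower in all 6 animals. Its pancreas values were 90202, 92828, 38260.0, 995, 84555 and 96195 TPM in animals 1 to 6. Its submandibular values were 412, 216, 189, 466, 191 and 423 TPM in animals 1 to 6. The pancreas of animal 4 was well below the other 5 but still above its own submandibular library. The difference was -6.98 (SE 0.73, adjusted p = 2.72e-07), and -8.15 without the animal 4 pair. PRSS2, a second trypsinogen gene, fell by 6.49, CPA1, procarboxypeptidase A1, by 6.40, and the elastase genes CELA1 and CELA3B by 6.79 and 6.63 on the log2 scale. CELA3B stood at 24048 to 46593 TPM (median 33764) in 5 pancreas libraries, at 544 TPM in animal 4 and at 110.4 to 339 TPM in the submandibular gland.

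Among the genes for fat digestion, CLPS, encoding the colipase that lets pancreatic lipase act on bile-coated fat, was the most abundant. It stood at 59960.5 to 100414 TPM (median 75188) in 5 pancreas libraries, 1107 TPM in animal 4 and 232 to 1003 TPM in the submandibular gland. Its difference was -6.63 (SE 0.71, adjusted p = 3.17e-07). PNLIPRP2 and PNLIPRP1, relatives of pancreatic lipase, differed by -6.77 and -6.48, PNLIP, pancreatic lipase itself, by -6.31, and PLA2G1B, secreted phospholipase A2, by -6.48. PLA2G1B was lower in only 5 of 6 animals, with 348 TPM in the submandibular and 328 TPM in the pancreas library of animal 4.

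Granule components followed. PDIA2, a protein disulfide isomerase of pancreatic acinar cells, stood at 977 to 1699 TPM (median 1381) in 5 pancreas libraries and at 3.87 to 12.3 TPM in the submandibular gland, a difference of -6.56 (SE 0.63, adjusted p = 1.51e-07). GP2, the main membrane glycoprotein of zymogen granules, differed by -6.28 and SPINK1, the trypsin inhibitor that protects the acinar cell, by -6.27. SYCN, syncollin of the granule membrane, was the tested member that did not pass, at 1.81 TPM in submandibular gland and 6.95 TPM in pancreas over 5 animals, with a difference of -0.53. The LOC identifiers with the largest falls, LOC114677048 (-6.86), LOC694691 (-6.73) and LOC698859 (-6.69), held 27326 to 51058 TPM, 6933 to 34354 TPM and 5982 to 17148 TPM in the 5 pancreas libraries.

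Pancreatic enzyme genes were not at 0 in the submandibular gland. The median of 15 enzyme genes in a submandibular library was 0.330 to 0.785% of their mean in pancreas. Genes of a liver list stood, by the same measure, at 0.335 to 0.905% of their liver mean in the submandibular libraries and at 0.639 to 1.21% in the pancreas libraries. In turn the 6 salivary markers stood in pancreas at 1.27 to 3.36% of their submandibular mean. What part such low levels have in any difference was not tested.

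Amylase was the subject of the series, and AMY2B and its nearest genes divided by tissue. AMY2B, pancreatic alpha-amylase, and LOC114669773 were lower in the submandibular gland than in pancreas in 6 of 6 animals. LOC713027 was higher in 6 of 6 as deposited, but not in animal 4 with trimmed-mean scaling. The identifiers LOC114669773 and LOC713027 are the nearest genes to AMY2B in the RefSeq table of assembly T2T-MMU8v2.0, which names neither as an amylase. Whether these neighbours are close copies of AMY2B was not tested. If they are, shared reads may have been divided among the genes, so single values are uncertain.

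AMY2B stood at 112, 122, 83.1, 126, 131 and 94.9 TPM in animals 1 to 6 in the submandibular gland. In the pancreas it stood at 339.6, 17002, 1832, 139, 15001 and 7425 TPM in animals 1 to 6. The submandibular values lay within a narrow band, and the pancreas values covered more than 2 orders of magnitude, with animals 1 and 4 lowest. The mean within-animal difference was -4.40 ± 2.93 (SD, n = 6).

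LOC114669773 stood at 331, 164, 105, 297, 142 and 199 TPM in animals 1 to 6 in the submandibular gland. In the pancreas it stood at 68433, 48591, 10661, 420.2, 10919 and 27849 TPM in animals 1 to 6. Animal 1, with the second lowest AMY2B in pancreas, had the highest value of this gene. The 2 genes together with LOC713027 were summed, and LOC114669773 made up 41.4 to 99.1% of the pancreas sum and AMY2B 0.492 to 56.9%. The mean difference of LOC114669773 was -6.07 ± 2.82.

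LOC713027 had the opposite direction. Its submandibular values were 7671, 9839, 2832, 206, 6934 and 166 TPM in animals 1 to 6, and its pancreas values were 310.2, 517, 254, 195, 451 and 139 TPM in animals 1 to 6. Animals 1, 2, 3 and 5 were high in the submandibular gland, and animals 4 and 6 were within the pancreas range, with within-animal differences of 0.08 and 0.25. The mean difference was 2.77 ± 2.05. It made up 93.8 to 97.2% of the 3-gene sum in the submandibular gland of animals 1, 2, 3 and 5, and 32.8 and 36.1% in animals 4 and 6.

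Summed over the 3 genes, expression was 8115, 10125, 3021, 629.6, 7208 and 460.8 TPM in the submandibular gland and 69083, 66110, 12746, 754, 26370 and 35413 TPM in the pancreas of animals 1 to 6. The submandibular sum was lower in 6 of 6 animals, with a mean difference of -2.71 ± 1.99. An exact two-sided sign-flip test gave p = 0.03125 for each of the 3 genes and the sum, the smallest value that 6 animals allow, and the same after adjustment over these 4. Without animal 4 all 4 kept their direction in 5 of 5 animals, where the smallest exact p is 0.0625. LOC713027 missed the threshold with trimmed-mean scaling (exact sign-flip p = 0.0625). Dividing by factors of 2.89 for the submandibular and 2.24 for the pancreas library left animal 4 with the lower LOC713027 value in the submandibular gland. An unpaired exact permutation test over 924 splits gave 0.0519 for LOC713027 and 0.0628 for the sum.

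**Figure D3:**
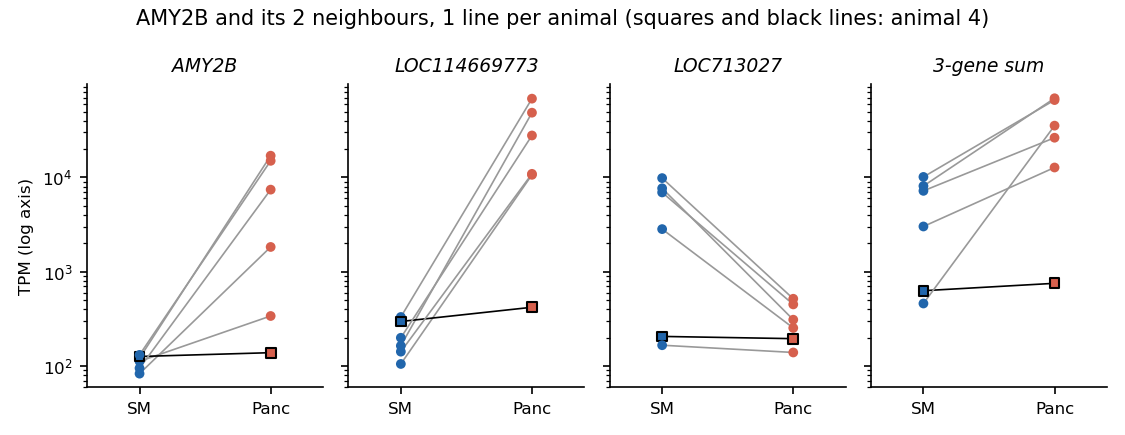
TPM on a log axis for AMY2B, LOC114669773, LOC713027 and their sum, with 1 line per animal from submandibular gland to pancreas and animal 4 in black with squares. AMY2B and LOC114669773 rise towards pancreas in every animal, LOC713027 falls, and animals 4 and 6 have submandibular LOC713027 values of 206 and 166 TPM, far below those of the other 4.

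The endocrine side of the pancreas was also at low levels in the submandibular gland. Of 22 islet hormone and endocrine granule genes, 13 passed the filter, and 11 of these were lower in the submandibular gland and 0 higher, with a median of -2.97. With trimmed-mean scaling 9 were lower, and without the animal 4 pair all 13, beside 7.82% and 25.6% of all genes (7.46% as deposited). The other 9, which include CHGA, PCSK2 and PTPRN, were too low in most libraries to be tested. CHGA, chromogranin A of endocrine granules, ran from 2.22 to 13.3 TPM in the 5 pancreas libraries and reached at most 0.110 TPM in the submandibular gland.

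GCG, the glucagon gene of alpha cells, stood at 465, 331, 835, 16.5, 325 and 549.8 TPM in animals 1 to 6 in the pancreas and at 1.12 to 3.93 TPM in the submandibular gland. The groups did not overlap even with animal 4 included, and the difference was -6.47 (SE 0.53, adjusted p = 2.53e-08). INS, the insulin gene of beta cells, stood at 11444, 6281, 127239, 408, 10727 and 8897 TPM in animals 1 to 6 in the pancreas. The piece from animal 3 held more than 10 times the insulin transcript of the pieces from animals 1, 2, 5 and 6. In the submandibular gland INS ran from 24.6 to 446 TPM, with animal 4 highest and above its own pancreas library. The difference was -6.50 (SE 0.85, adjusted p = 5.18e-06), or -7.83 without that pair. IAPP, the amylin gene co-released with insulin, differed by -6.09 and SST, the somatostatin gene of delta cells, by -5.79. PPY, pancreatic polypeptide, differed by -2.32 and was highest of all 12 libraries in the submandibular library of animal 4 (34.4 TPM), against at most 0.535 TPM in the other submandibular and 3.05 to 14.7 TPM in the 6 pancreas libraries.

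Transcription factors differed in opposite directions by list. Of 25 pancreatic factors in the table, 15 passed the filter and 14 of them were lower in the submandibular gland, with a median of -2.29. None was higher. Of 28 salivary and oral epithelial factors, 27 passed and 14 were higher and 0 lower, with a median of 0.92. With trimmed-mean scaling 14 pancreatic factors were lower and 18 salivary factors higher. Without the animal 4 pair 14 were lower and 17 higher, with 1 salivary factor lower. Among all genes 2.25% were higher and 7.46% lower, 8.25% and 7.82% with trimmed-mean scaling, and 3.74% and 25.6% without that pair.

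RBPJL, the acinar partner of the PTF1 complex, had the largest difference of any listed factor, with 398 to 1518 TPM (median 731) in 5 pancreas libraries, 15.8 TPM in animal 4 and 1.94 to 9.41 TPM in the submandibular gland. It differed by -6.51 (SE 0.64, adjusted p = 1.51e-07). PTF1A, the other tissue-restricted subunit of that complex, was above 1 TPM only in the 5 pancreas libraries other than animal 4, at 34.9 to 57.3 TPM (median 49.5), and so failed the filter. Animal 4 had 0.609 TPM in pancreas, and submandibular values ran from 0.109 to 0.257 TPM. It was 1 of 47 untested genes of this kind, 39 with a symbol, which also include the islet factors NKX6-1, MNX1 and PAX6.

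Factors of the pancreatic lineage at moderate levels were lower as well. NR5A2, which drives acinar genes, stood at 9.99 to 15.1 TPM (median 11.7) in 5 pancreas libraries and at 0.0870 to 0.180 TPM in 5 submandibular libraries, with 0.757 and 0.965 TPM in animal 4, and differed by -2.92 (SE 0.34, adjusted p = 8.07e-07). PDX1, needed for pancreas formation and beta-cell function, differed by -2.89 (SE 0.30, adjusted p = 2.3e-07) and reached at most 0.269 TPM in the submandibular gland. FOXA2 (-3.14), ONECUT1 (-2.68), GATA4 (-2.49) and GATA6 (-2.08), factors of the foregut endoderm, passed with trimmed-mean scaling too. BHLHA15 (MIST1), which builds the secretory apparatus of acinar cells in both organs, was the exception. It stood at 64.2 to 111 TPM in 5 submandibular and 93.9 to 187 TPM in 5 pancreas libraries, which overlap, and its difference of -0.53 (SE 0.68, adjusted p = 0.672) did not pass and turned to 0.08 with trimmed-mean scaling. In animal 4 it was at 1.55 and 2.57 TPM.

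Among the salivary factors, the homeodomain gene PITX1 stood at 29.5 to 42.3 TPM (median 34.3) in 5 submandibular libraries, 5.58 TPM in animal 4 and 0.909 to 3.00 TPM in pancreas, and differed by 3.21 (SE 0.45, adjusted p = 1.37e-05).

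SOX10, known from salivary acinar progenitors and from Schwann cells, had 20.4 to 30.0 TPM (median 26.3) in 5 submandibular libraries, 1.70 TPM in animal 4 and 0.971 to 2.54 TPM in pancreas, a difference of 2.95 (SE 0.50, adjusted p = 0.000175). Of the 4 nerve and Schwann cell genes tested SOX10 was the only one called, while S100B differed by -0.63 and did not pass. PAX9 (2.79), SPDEF (2.69), ELF5 (2.52), FOXC1 (2.48) and BARX2 (2.04), all epithelial factors, were higher too. ASCL3, a factor of salivary duct cells, spread widely between animals, from 1.73 to 11.5 TPM in the 5 submandibular libraries, and differed by 2.00 (SE 0.47, adjusted p = 0.00505). SOX9, active in ducts of both organs, had 5.62 and 7.29 TPM on average in 5 animals and did not pass (-0.11, and 0.33 with trimmed-mean scaling).

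Receptors for the signals that start secretion differed in both directions. Of 13 tested of 19, 2 were higher and 2 lower, and with trimmed-mean scaling 7 were higher and 2 lower. Without the animal 4 pair the numbers were 4 and 2. Over all genes the shares were 2.25% and 7.46%, 8.25% and 7.82%, and 3.74% and 25.6% in the same order. SCTR, receptor of secretin, the gut hormone that raises pancreatic bicarbonate, stood at 47.5 to 191 TPM (median 78.6) in 5 pancreas libraries, 6.39 TPM in animal 4 and 0.277 to 4.13 TPM in the submandibular gland, and differed by -5.05 (SE 0.47, adjusted p = 9.71e-08). INSR, the insulin receptor, was also lower (-1.10, adjusted p = 0.0134). ADRB1, the beta-1 adrenergic receptor of sympathetic protein secretion, stood at 2.22 to 6.92 TPM in the 6 submandibular libraries and 0.121 to 0.989 TPM in pancreas without overlap, and was higher by 2.02 (SE 0.27, adjusted p = 6.23e-06).

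Muscarinic receptors receive the parasympathetic signal for fluid. CHRM1 was higher by 1.27 (SE 0.38, adjusted p = 0.0305), with 1.55 to 4.41 TPM (median 2.84) in 5 submandibular libraries and 0.117 to 0.766 TPM in 5 pancreas libraries. CHRM3, with 1.96 to 2.62 TPM and 0.704 to 1.35 TPM, did not overlap in those 5 animals but did not pass with animal 4 included (0.63, adjusted p = 0.227). CCKAR, a receptor of cholecystokinin, was not tested and stood below 1 TPM in all 12 libraries.

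Water channels and ion transporters differed in both directions. Of 34 tested of 37, 13 were higher and 6 lower in the submandibular gland. The numbers were 17 and 6 with trimmed-mean scaling, and 15 and 7 without the animal 4 pair. Shares of all genes were 2.25% and 7.46%, 8.25% and 7.82%, and 3.74% and 25.6% in that order. AQP8, an aquaporin of pancreatic acinar cells, stood at 777, 828, 438, 7.71, 618 and 799 TPM in animals 1 to 6 in the pancreas and at 2.09 to 4.59 TPM in the submandibular gland, a difference of -6.34 (SE 0.65, adjusted p = 2.21e-07). AQP12A, a pancreas aquaporin inside acinar cells, stood at 146 to 249 TPM (median 242) in 5 pancreas libraries and at 0.438 to 1.15 TPM in the submandibular gland, a difference of -5.93 (SE 0.58, adjusted p = 1.51e-07).

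AQP5, the apical water channel through which saliva flows, went the other way. It stood at 82.5, 77.5, 63.5, 3.22, 97.6 and 153 TPM in animals 1 to 6 in the submandibular gland and 1.96 to 7.24 TPM in pancreas, and differed by 3.48 (SE 0.59, adjusted p = 0.00016). AQP3, a basolateral water and glycerol channel, was higher by 3.16 (SE 0.56, adjusted p = 0.000252). AQP1, common in small vessels, was higher by 2.65 (SE 0.63, adjusted p = 0.00583), but animal 4 had its highest value in both tissues (249.9 and 273 TPM).

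Chloride and potassium channels of salivary secretion were among the higher genes. ANO1, the calcium-activated chloride channel, stood at 6.77 to 14.8 TPM (median 8.12) in 5 submandibular libraries and 0.542 to 1.14 TPM in 5 pancreas libraries and differed by 2.01 (SE 0.42, adjusted p = 0.00151). KCNN4, a calcium-activated potassium channel, had 20.9 to 98.1 TPM over all 6 submandibular and 1.32 to 6.57 TPM over all 6 pancreas libraries and differed by 3.22 (SE 0.50, adjusted p = 5.53e-05). CA12, a membrane carbonic anhydrase, was higher by 2.75.

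Several bicarbonate and potassium transport genes were lower in the submandibular gland. SLC4A4, the sodium-bicarbonate cotransporter, stood at 4.87 to 10.4 TPM (median 8.64) in 5 pancreas libraries, at 0.444 TPM in animal 4 and never more than 0.215 TPM in the submandibular gland, and differed by -2.58 (SE 0.29, adjusted p = 5.3e-07). CA4, another membrane carbonic anhydrase, differed by -2.69, the potassium channel gene KCNJ15 by -2.92 and the anion exchanger SLC4A2 by -1.30. CFTR, the apical chloride and bicarbonate channel of both glands, overlapped in 5 animals, at 2.83 to 4.49 TPM and 3.65 to 6.90 TPM. It did not pass (-0.20, SE 0.33, adjusted p = 0.746, and 0.33 with trimmed-mean scaling), and both animal 4 libraries held little of it (0.0505 and 0.129 TPM).

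**Figure D4:**
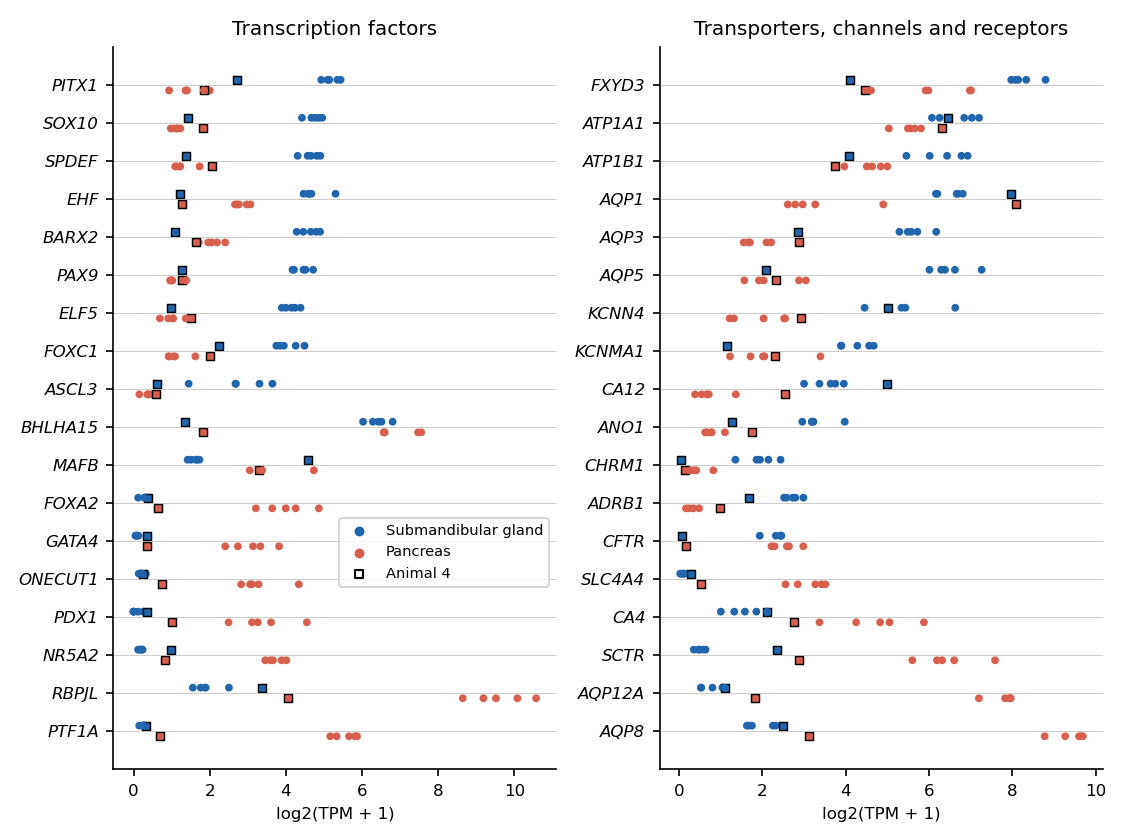
Log2(TPM + 1) of transcription factors (left) and of transporters, channels and receptors (right) in each of the 12 libraries, blue for submandibular gland, red for pancreas, squares for animal 4. Salivary factors such as PITX1 and channels such as AQP5 are high in 5 submandibular libraries, RBPJL and AQP8 are high in 5 pancreas libraries, and BHLHA15 and CFTR overlap.

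Of 56 tested genes of the endoplasmic reticulum, where secreted proteins are folded and sent on, 8 were lower in the submandibular gland and 0 higher, beside 7.46% lower over all genes. Their median was -0.40, beside -0.33 for all genes. Without the animal 4 pair 18 were lower and 0 higher, beside 25.6% lower over all genes. With only the 12 compared libraries 16 were lower and 1 higher, beside 1998 and 584 of all 13550 genes. With trimmed-mean scaling 5 were lower and 1 higher, beside 7.82% and 8.25% of all genes. The median then turned to 0.11, beside 0.01 for all genes. TMED6, a cargo receptor of the early secretory path, differed most, with 85.1 to 747 TPM (median 183) in 5 pancreas libraries and 0.770 to 2.79 TPM in the submandibular gland (-5.56, SE 0.59, adjusted p = 3.13e-07). ERO1B, the oxidase that supplies disulfide bonds in pancreatic cells, stood at 58.8 to 72.7 TPM (median 70.3) in 5 pancreas libraries and 1.87 to 4.17 TPM in the submandibular gland (-3.37, SE 0.42, adjusted p = 2.49e-06), and in animal 4 the pancreas held 3.91 TPM. SEL1L (-2.17), SDF2L1 (-1.93) and PDIA4 (-1.38) kept their calls with trimmed-mean scaling. XBP1, the factor that expands the endoplasmic reticulum, differed by -1.66 (SE 0.39, adjusted p = 0.00564), but with trimmed-mean scaling its adjusted p was 0.0902.

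Of 17 tested genes for amino acid synthesis, uptake and transfer RNA charging, 6 were lower in the submandibular gland and 0 higher, beside 7.46% and 2.25% of all genes. With trimmed-mean scaling 4 were lower and 3 higher, without the animal 4 pair 10 and 2, and with only the 12 compared libraries 12 and 2. Of all genes 7.82% were lower and 8.25% higher with that scaling, and 25.6% and 3.74% without that pair. In the fit of only the 12 libraries 1998 of all 13550 genes were lower and 584 higher. The creatine synthesis genes GATM and GAMT stood at 109 to 613 TPM and 142 to 191 TPM in 5 pancreas libraries and 28.2 to 82.1 TPM and 15.6 to 23.8 TPM in 5 submandibular libraries. GAMT differed by -2.55 (SE 0.42, adjusted p = 0.000132) and GATM by -2.04 (SE 0.56, adjusted p = 0.019), the latter with an adjusted p of 0.0912 under trimmed-mean scaling. CBS, which makes cystathionine from homocysteine, differed by -3.22 (SE 0.48, adjusted p = 3.26e-05).

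Genes of secretory immunity differed in both directions. PIGR, the receptor that carries dimeric IgA across the epithelium, stood at 32, 62.1, 99.6, 2.50, 21.2 and 62.3 TPM in animals 1 to 6 in the submandibular gland and 1.25 to 5.00 TPM in pancreas, a difference of 3.28 (SE 0.66, adjusted p = 0.00115). CCL28, a mucosal chemokine for IgA plasma cells, stood at 32.9 to 78.2 TPM (median 57.2) in 5 animals, 1.74 TPM in animal 4 and 0.619 to 8.12 TPM in pancreas, a difference of 3.44 (SE 0.63, adjusted p = 0.000445). JCHAIN, which joins IgA into dimers, had 33.9, 83.7, 314, 141, 166 and 420.2 TPM in animals 1 to 6 in the submandibular gland and 12.6 to 105 TPM in pancreas. It was higher in 6 of 6 animals, by 2.28 (SE 0.57, adjusted p = 0.00845), although the groups overlap. LOC720839, which the RefSeq table lists as an immunoglobulin constant region, differed by 2.37 (SE 0.61, adjusted p = 0.0112). LOC701504, protein-coding with no name there, differed by 2.64 (SE 0.55, adjusted p = 0.00172), and its role is not known from the sources used here. Of 14 tested genes on the IgA and plasma cell list 3 were higher and 2, DERL3 (-2.61) and XBP1, lower, beside 2.25% and 7.46% of all genes. With trimmed-mean scaling 5 were higher and 1 lower (8.25% and 7.82% of all genes), and without the animal 4 pair 3 and 3 (3.74% and 25.6%). The list median was 0.11, 0.27 with trimmed-mean scaling and -0.07 without that pair, beside -0.33, 0.01 and -0.45 for all genes. Summed over the list, the 5 animals had 383 to 811 TPM in the submandibular gland and 835 to 1102 TPM in pancreas. This sum includes DERL3 and XBP1, and JCHAIN gave at most 105 TPM of it in pancreas. The plasma cell genes MZB1 (1.04) and TNFRSF17 (0.07) did not pass.

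Of 19 tested antimicrobial genes 5 were higher and 1, SLPI, lower, with 7 and 0 under trimmed-mean scaling and 7 and 1 without the animal 4 pair. The shares of all genes were 2.25% and 7.46%, 8.25% and 7.82%, and 3.74% and 25.6% in that order. LYZ, lysozyme, stood at 544, 223, 1308, 203, 283 and 1224 TPM in animals 1 to 6 in the submandibular gland and 28.9 to 209.5 TPM in pancreas, and was higher in 6 of 6 animals by 2.42 (SE 0.67, adjusted p = 0.0179). DEFB1, a constitutive epithelial defensin, had 87.8 to 541 TPM against 23.4 to 83 TPM without overlap, and differed by 2.69 (SE 0.48, adjusted p = 0.000326). PGLYRP1, which binds bacterial peptidoglycan, differed by 2.41, and WFDC2 by 1.81. LTF, lactoferrin, was below 1 TPM on average in both tissues of the 5 animals.

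Of 22 tested keratin, claudin and duct genes, 4 were higher and 2 lower, beside 2.25% and 7.46% of all genes. The numbers were 5 and 2 with trimmed-mean scaling, 5 and 4 without the animal 4 pair and 7 and 5 with only the 12 compared libraries. Shares of all genes were 8.25% and 7.82% with that scaling and 3.74% and 25.6% without that pair. In the fit of only the 12 libraries 584 of all 13550 genes were higher and 1998 lower. KRT23 stood at 33.2 to 54.7 TPM (median 42.1) in 5 submandibular libraries, 2.30 TPM in animal 4 and 2.28 to 4.32 TPM in pancreas (2.76, SE 0.45, adjusted p = 0.00011), and the basal keratins KRT14 (1.89, adjusted p = 0.039) and KRT17 (1.75) and the claudin CLDN8 (1.15) were higher too. The lower members were SPP1, osteopontin of pancreatic ducts, with 14 to 79.8 TPM in pancreas and 0.407 to 7.05 TPM in the submandibular gland (-4.48, SE 0.51, adjusted p = 6.27e-07), and the membrane mucin MUC1 (-4.04, SE 0.72, adjusted p = 0.000285). KRT8 and KRT18, the simple epithelial keratins, averaged 60.2 and 39.3 TPM in 5 submandibular and 60.6 and 35.3 TPM in 5 pancreas libraries and did not pass, and both differences turned from negative (-0.54 and -0.33) to positive with trimmed-mean scaling (0.08 and 0.30).

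Markers of several other cell types had high summed levels in animal 4, and the number called depended on whether its pair was included. On the list for myoepithelial cells, the contractile cells around salivary acini, 1 of 12 tested genes was higher (KRT14), 5 with trimmed-mean scaling and 8 without the animal 4 pair. Their summed level was 187 to 370 TPM in 5 submandibular and 39.5 to 219 TPM in 5 pancreas libraries, and 1951 and 4817 TPM in animal 4. The highest sum was thus in a pancreas library, so this list is not particular to the submandibular gland. Adipocyte genes summed to 72.8 to 279 and 306 to 3426 TPM in the 5 animals and 18138 and 32661 TPM in animal 4, with 0 higher and 1 of 15 (ADIRF, -2.33) lower, the same numbers without its pair. Stromal genes summed to 71.5 to 156 and 169 to 512 TPM, and 9669.8 and 4013 TPM in animal 4, with 0 of 13 called, and 4 lower without its pair. Endothelial genes summed to 14.5 to 25.8 and 41.7 to 162 TPM, and 499.8 and 770.3 TPM in animal 4, with 1 of 10 lower (PLVAP, -2.10). Of these 10, 8 were lower without its pair, 7 with only the 12 compared libraries and 4 with trimmed-mean scaling. Over all genes 2.25% were higher and 7.46% lower, 3.74% and 25.6% without the animal 4 pair, and 8.25% and 7.82% with trimmed-mean scaling. In the fit of only the 12 libraries 584 of all 13550 genes were higher and 1998 lower. Blood, muscle, macrophage and lymphocyte lists had 0 called of 5, 16 and 14 tested, and the mitochondrially encoded genes 0 of 13, with and without the pair. No marker on these lists was at 0 in every library of either tissue. The part of these cell types in the differences of the gland and pancreas genes was not tested beyond leaving out the animal 4 pair.

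**Figure D5:**
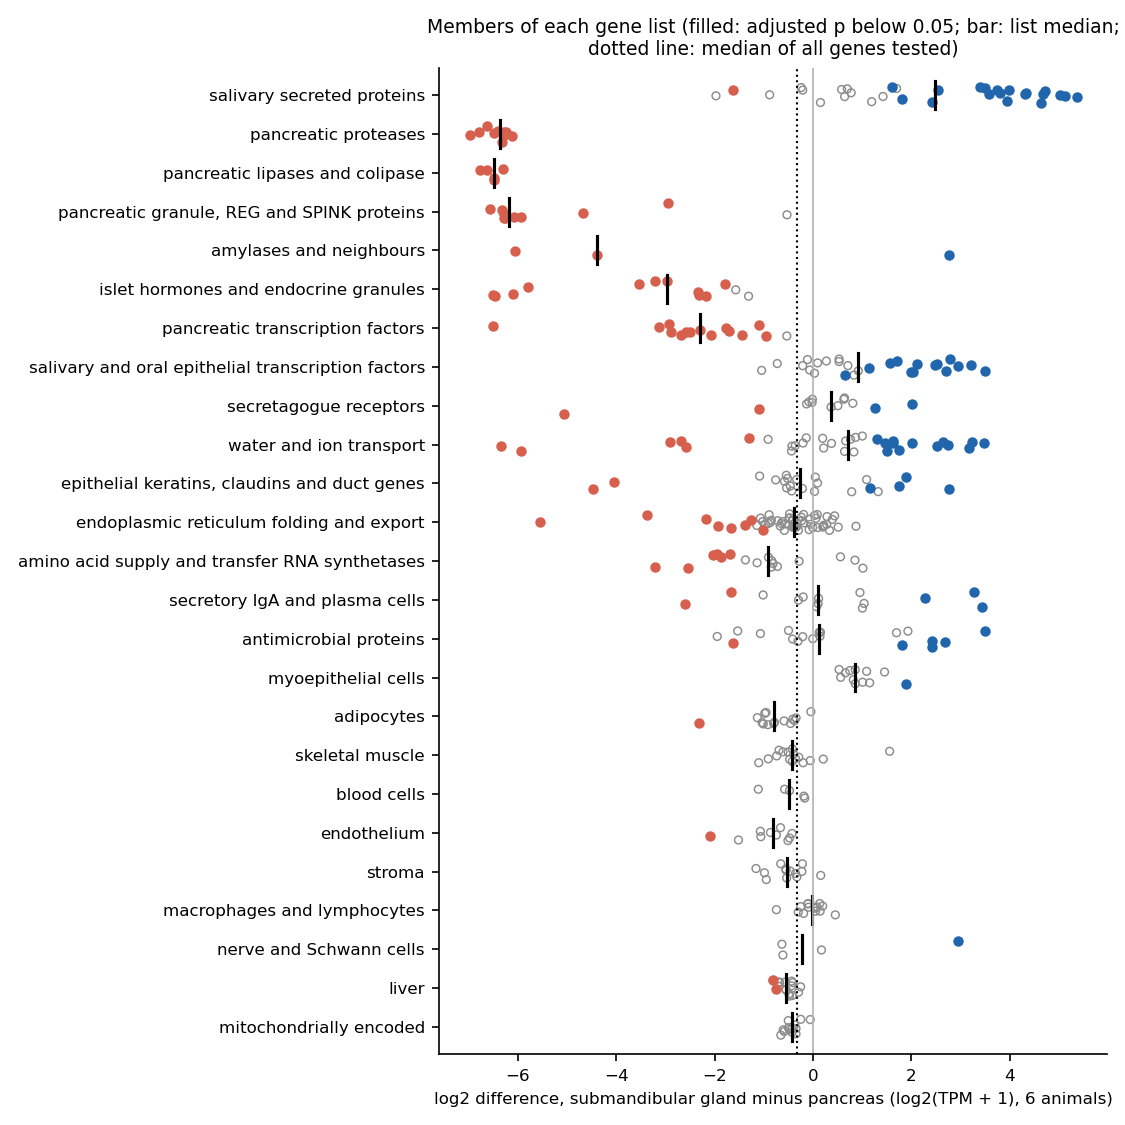
Each point is a gene's log2 difference, submandibular gland minus pancreas, by gene list, filled where the adjusted p was below 0.05, with a bar at the list median and a dotted line at the all-gene median of -0.33. The protease and lipase lists lie wholly below -6, the salivary secreted list is spread from -1.97 to 5.36, and among the lists of other cell types the medians run from -0.81 for endothelium to 0.86 for myoepithelial cells.

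Outside the lists, 6 genes were among the 12 largest rises with the same direction in 6 of 6 animals. DUSP1, a phosphatase that switches off MAP kinases and is induced quickly by stress, stood at 59, 122, 194, 129, 199 and 92.1 TPM in animals 1 to 6 in the submandibular gland and 4.07 to 14.9 TPM in 5 pancreas libraries, with 83 TPM in animal 4, a difference of 3.47 (SE 0.55, adjusted p = 6.56e-05). The immediate-early genes FOS (-0.14, and 0.23 with trimmed-mean scaling), JUN (0.15) and EGR1 (-0.91), looked at after DUSP1 was seen, did not pass. TESC, a calcium-binding protein, stood at 189 to 349 TPM (median 214) in 5 animals, 55.2 TPM in animal 4 and 12.2 to 28 TPM in pancreas, without overlap (3.20, SE 0.43, adjusted p = 7.8e-06). RCN1, a calcium-binding protein of the endoplasmic reticulum, stood at 66.3 to 119 TPM over 6 submandibular libraries and 6.60 to 14.2 TPM in 5 pancreas libraries, with 72.6 TPM in animal 4 (2.61, SE 0.45, adjusted p = 0.000214). NDRG2, of the NDRG family, rose by 2.30, SLC31A1, the copper importer CTR1, by 2.26 and CD9, a tetraspanin of the cell surface, by 2.05.

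The submandibular gland was also compared with the other salivary glands, using the same submandibular libraries as the comparison with pancreas. Against the parotid gland 47 genes differed (0.347%), 29 higher (0.214%) and 18 lower (0.133%) in the submandibular gland, and none when only those 12 libraries were fitted (632 at an unadjusted p below 0.05). Leaving out the submandibular and pancreas libraries of animal 4 gave 79 (0.583%), and leaving out single animals 5 (animal 2) to 86 (animal 4). The balance of directions turned with the animals included, with 0 higher and 5 lower without animal 2, 2 and 7 without animal 1, 4 and 7 without animal 3, and 6 and 14 without animal 6. No gene called higher against parotid thus kept its call without animal 2. The submandibular gland held more CST2 (6.12, SE 1.03, adjusted p = 0.00342), MUC7 (4.22), CST3 (2.23), JCHAIN (2.72) and CFTR (1.61). CST2 averaged 414 ± 268 TPM in parotid and 64529.6 ± 42537 TPM in the submandibular gland (mean ± SD, n = 6). LOC695018 was lower (-3.33, adjusted p = 0.000126). SMR3B (-0.27), BPIFA2 (0.27) and LOC114670789 (-0.99) did not pass, which does not show that their levels are the same in both glands.

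Against the sublingual gland 3787 genes differed (27.9%), 102 higher (0.753%) and 3685 lower (27.2%), and 876 (6.46%) and 1119 (8.26%) with trimmed-mean scaling (14.7% in all). Without the submandibular and pancreas libraries of animal 4 the count was 9035 (66.7%), and it was 666 when only those 12 libraries were fitted. SMR3B (4.15), BPIFA2 (4.61), CST2 (4.84), CST3 (1.85), TESC (1.82), RCN1 (1.84) and CFTR (1.34) were higher in the submandibular gland. SLPI (-6.22), C4H6orf58 (-6.05), OLFM4 (-5.42) and JCHAIN (-3.20) were lower, all with adjusted p-values below 0.05 in both scalings. JCHAIN thus stood between parotid (22.6 ± 8.61 TPM) and sublingual gland (3272 ± 4078 TPM, n = 6 each).

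The difference between submandibular gland and pancreas was also compared between the 4 females and the 2 males. No gene of 13550 passed in the test of that difference in limma (0%). An unadjusted p below 0.05 was found for 38, where 677.5 are expected by chance. The standard error of the sex term had a median of 0.76 on the log2 scale, against 0.35 for the tissue difference.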

How the data were processed

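The authors deposited 1 table of TPM values with 21292 genes and 30 libraries, with columns of equal sum. The depth behind them is therefore unknown, and no counting interval is printed. The submitters' processing notes name kallisto, HISAT2, featureCounts, cutadapt, SAMtools and DESeq2 among the tools. Versions, the genome build and the transcriptome are not given in the sources used here, so no coordinates or sequences are printed. Paired reads of 150 bases came from RNA of frozen sections, per the labels' protocols. Symbols of 19177 genes were found in a RefSeq table of assembly T2T-MMU8v2.0. Close copies such as the trypsinogen, elastase, cystatin, BPIF and SMR3 genes may share reads, so their single values are uncertain. AMY2B and its nearest genes may share reads too.

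From these values, limma 3.58.1 in R 4.3.3 was fitted to log2(TPM + 1) of all 30 libraries with tissue and animal as terms and a variance trend, on 13550 genes reaching 1 TPM in 6 or more libraries. Differences on this scale understate changes at low TPM. Two-sided p-values were adjusted over all genes tested (Benjamini-Hochberg), with a threshold of 0.05. Animal is a term because the labels give the same 6 animals in both tissues. Deviations of same-animal libraries from their tissue means correlated at 0.165 to 0.700 (mean 0.414), against a mean of -6.59e-05 between animals. AMY2B, its 2 nearest genes and their sum were also tested with an exact sign-flip permutation of 64 patterns. On simulated data of 13550 genes for submandibular gland against pancreas, 79% of genes changed by 2 on the log2 scale and 92% of those changed by 4 were called, and 5.52% of calls were false. The simulated noise was normal, with 1 spread per gene in all tissues and animal effects shared by all tissues. It held neither the departure of the 2 animal 4 libraries nor the shifts in share from very abundant genes. These rates therefore need not hold for the real comparison.

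The members and gene lists were chosen with earlier results of these data known. Named genes are the 12 largest rises and 12 largest falls with a symbol, an adjusted p below 0.05, the same direction in 6 of 6 animals and 100 TPM or more on average where higher. Added to these are 3 LOC genes each way by the same rule, the 6 largest each way without the animal 4 pair, and AMY2B with its 2 nearest genes. The rest are up to 4 most abundant members of each list, members past the threshold in both scalings, and 3 each way against the parotid and sublingual gland. Other genes named in the text, such as CHRM3, CFTR, SOX9, KRT8, INSR, TNFRSF17 and CHGA, were chosen after their values were seen. Some genes that the rule names are not reported here. No per-sample column was left unused (0). Alternatives covered the scaling, the pseudocount (0.1), the filter (5 TPM or none), the animal term, the libraries fitted and each animal left out. 2 of them, which leave out the animal 4 pair and fit only the compared libraries, were added after seeing the data.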

Additional observations from a re-analysis of the deposited data

Results flagged for a closer look

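The submandibular and pancreas libraries of animal 4 stood apart in 10 of 26 sets of 6 libraries examined, each with a gap to the nearest library, as a share of the whole range, above Dixon's 95% critical value for 6 samples. Chance picks out about 1 in 20 independent sets, but these share the same 12 libraries and animal 4 was known to stand apart, so the number is a description only. All 10 involved animal 4. In its submandibular library SMR3B was 914 TPM (next 103269), the median of the 6 salivary markers 538 TPM (next 23396), the 10 most abundant genes held 11.1% of TPM (next 73.5%) and the adipocyte median was 660 TPM (next 6.72). In its pancreas library PRSS1 was 995 TPM (next 38260), the median of the 6 pancreas markers 399.9 TPM (next 24099), the 10 most abundant genes held 14.2% (next 37.1%), LOC114669773 was 420 TPM (next 10661), the 3-gene amylase sum 754 TPM (next 12746) and CST3 3320 TPM (next 525).

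KRT8, a keratin of simple epithelia, was the only one of 123 named genes in which every female moved one way and every male the other. Its submandibular minus pancreas difference averaged -1.0 in the 4 females, animal 4 among them, and 0.37 in the 2 males. The difference between the sexes was 1.37 (SE 0.86), with a limma p of 0.125 before and 1.00 after adjustment over all genes.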

How the results depend on the processing

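The number of genes that differed between submandibular gland and pancreas (1316) was 2178 with trimmed-mean scaling, 2493 with quantile normalisation, 3982 without the animal 4 pair, 3073 without it and with trimmed-mean scaling, 2582 with only the 12 compared libraries, and 8080 with array weights, whose estimation stopped early. Fits added after seeing the data, of only the compared libraries without the animal 4 pair, gave 6470, and 4600 with trimmed-mean scaling. Leaving out single animals gave 623 to 3946. Against parotid the count (47) was 97 with trimmed-mean scaling, 79 without the animal 4 pair, 0 with only 12 libraries and 5 to 86 with single animals left out. Against the sublingual gland the count (3787) was 1995, 9035, 666 and 1281 to 8865 in the same order. In the parotid fit of only 12 libraries 632 genes had an unadjusted p below 0.05, where 677.5 are expected by chance. The cause was not tested. The sex term called 0 genes in limma under every alternative run.

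Leaving out single animals moved the mean difference between -5.25 and -3.85 for AMY2B and between -7.18 and -5.64 for LOC114669773. For LOC713027 it moved between 2.40 and 3.31, and for the sum of the 3 genes between -3.20 and -2.0, where 5 animals allow no exact p below 0.0625. LOC713027 differed by 3.33 with trimmed-mean scaling and by 3.45 when scaled to the sum outside the 100 most abundant genes (exact p = 0.0625 in both). Without pairing by animal its difference was 2.77 (exact permutation p = 0.0519) and that of the sum -2.71 (0.0628). Without the animal block 1148 genes differed from pancreas, 40 from parotid and 2969 from the sublingual gland, and among 122 named genes only ADIRF, GATM and LOC720839 lost their call. With trimmed-mean scaling 6 of the 122 lost their call and 7 gained one, and without the animal 4 pair 15 gained one. None of the 122 that was called changed sign under these settings or with only the 12 libraries, while 20 that were not called did so with trimmed-mean scaling, among them KRT8 (-0.54 to 0.08) and BHLHA15 (-0.53 to 0.08). AMY2B, its 2 nearest genes and their sum kept the direction of their mean difference. The unknown depth, the 6 animals and the animal 4 libraries limit all counts.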
